A study of Mus musculus with 2 samples.

Results

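Oligodendrocyte precursor cells were selected in single-cell RNA data from mouse hippocampus by a gate on detected genes. A barcode was taken when it held at least 1 unique molecular identifier (UMI, a counted RNA molecule) of 3 or more of the 7 precursor markers Pdgfra, Cspg4, C1ql1, Cacng4, Lhfpl3, Vcan and Matn4. It could hold at most 1 of 8 genes of other cells, which were Dcn and Col1a1 (fibroblasts), Cldn5 and Flt1 (endothelium), Csf1r (microglia), Mog (myelinating oligodendrocytes), and Kcnj8 and Rgs5 (pericytes). The gate kept 59 of 28586 barcodes, 13 of 7003 in the EMF_AuNPs library and 46 of 21583 in the control library.

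The EMF_AuNPs library came from mice given gold nanoparticles (AuNPs) into the hippocampus by stereotaxic injection and kept in an electromagnetic field (EMF) between coils, with an exposure of 3 weeks. For the control library the mice had received saline, and the labels do not settle whether these mice were also placed in the field. Both groups were male C57BL/6 mice labelled as 6 months old, although the titles call the brain aged, and how many animals went into a library is not given in the sources used here. Each group was 1 library, so no difference between the groups could be tested against replicates. The intervals below are 95% intervals that cover counting error only.

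Oligodendrocyte precursor cells are the dividing glial cells of the adult brain from which new oligodendrocytes arise. They are maintained by platelet-derived growth factor acting on the receptor Pdgfra, and they carry a coat of chondroitin sulfate proteoglycans, of which Cspg4 (NG2) is the best known. The transcription factors Olig1, Olig2 and Sox10 mark the whole lineage. A precursor that leaves the cycle to differentiate passes through a short committed stage marked by the receptor Gpr17, with Bmp4, Neu4, Enpp6 and Bcas1, before it makes myelin proteins such as Mbp, Mag and Mog.

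The EMF_AuNPs library held 19544686 UMIs and the control library 51091452 UMIs, with medians of 2310 and 1904 UMIs per barcode. The gate barcodes held 48673 UMIs in the EMF_AuNPs library and 80639 UMIs in the control library. Their depth ran from 532 to 19617 UMIs with a median of 1059 in the EMF_AuNPs library, against 514 to 4176 UMIs with a median of 1710 in the control library. Of the EMF_AuNPs gate barcodes 3 held more than 5000 UMIs, and these 3 gave 75.4% of that gate's UMIs, while the control gate had 0 such barcodes. Pooled values of the EMF_AuNPs gate are therefore mostly values of 3 barcodes, and they are given below with and without them. The libraries shared 38 barcode sequences, 0 of them in the gate.

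**Figure D1:**
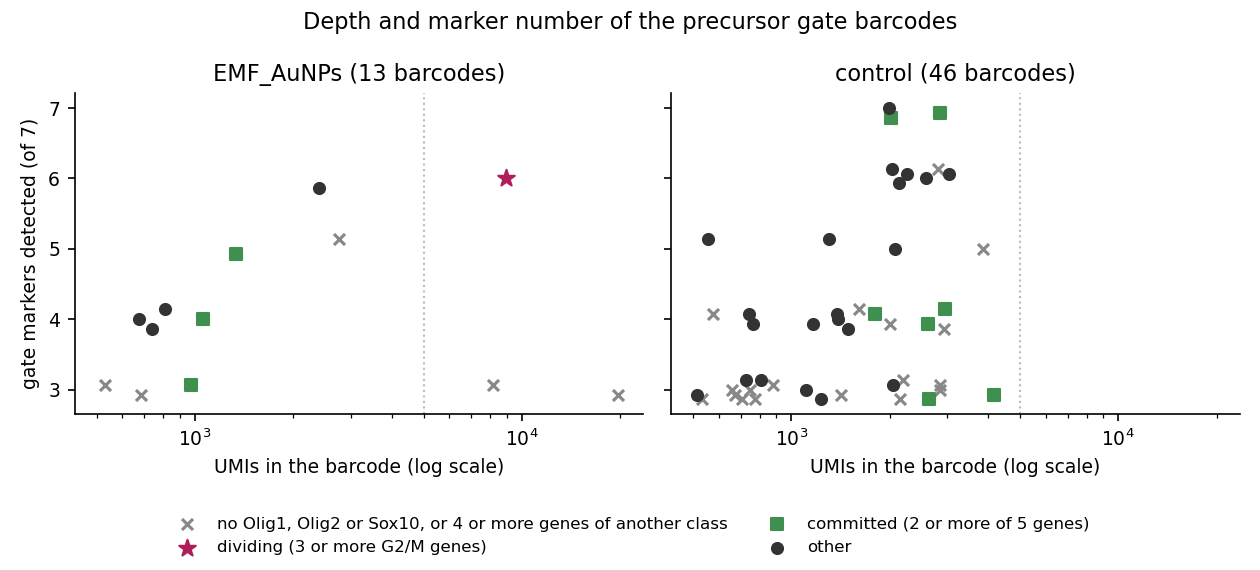
Each point is 1 gate barcode, with its UMIs on a log axis against the number of the 7 gate markers detected (points are shifted slightly up or down so that they do not overlap), EMF_AuNPs on the left and control on the right. The dotted line is at 5000 UMIs, with 3 EMF_AuNPs barcodes and 0 control barcodes to its right. Crosses mark barcodes with none of Olig1, Olig2 and Sox10, or with 4 or more marker genes of another cell class, astrocytes aside. They number 5 of 13 and 18 of 46.

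The 7 markers chose the barcodes, so their values describe the gate and show nothing beyond it. Pdgfra (mm10 chromosome 5, 75151322 to 75198206, positions from RefSeq on GRCm38) was detected in 9 of 13 EMF_AuNPs barcodes with 22 UMIs in all, and in 34 of 46 control barcodes with 58 UMIs. C1ql1, a secreted complement-like protein (chromosome 11, 102939264 to 102946716), was detected in 10 and 34 barcodes, with 27 and 84 UMIs. Cspg4 (chromosome 9, 56865104 to 56899870) was detected in 9 and 30 barcodes. Lhfpl3 (chromosome 5, 22746054 to 23275597) was detected in 7 EMF_AuNPs and 29 control barcodes, Vcan, which encodes the proteoglycan versican (chromosome 13, 89655309 to 89743027), in 6 and 32, and Matn4, a matrilin of the matrix (chromosome 2, 164389393 to 164405160), in 11 and 22. Cacng4, an auxiliary subunit of AMPA-type glutamate receptors (chromosome 11, 107732357 to 107794706), was the least often detected, in 1 and 8 barcodes.

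The share of a marker's UMIs that lay in the gate differed between markers, and most UMIs of each lay outside it. The gate held 43.9% of the EMF_AuNPs library's Lhfpl3 UMIs and 32.0% of the control library's, but 2.79% and 3.01% of the Cspg4 UMIs. Matn4 was detected in 8.71% of EMF_AuNPs and 7.22% of control barcodes of a mature oligodendrocyte gate, which asked for 4 or more of 7 myelinating markers, so 1 of the 3 markers asked for can be met by such a cell. Barcodes just inside the threshold, with 3 markers, numbered 5 in the EMF_AuNPs gate and 20 in the control gate. Of these, 3 and 12 held a UMI of Olig1, Olig2 or Sox10. Just outside it, 17 EMF_AuNPs and 49 control barcodes had 2 markers and met the limit on other genes. Of those, 8 (47.1%) and 24 (49.0%) held such a UMI. With 0 markers and the same limit, 37.9% of EMF_AuNPs and 42.2% of control barcodes held one. With 4 markers 4 of 4 EMF_AuNPs and 11 of 13 control barcodes held one, and with 5 or more all 4 and all 13 did. Another 6 EMF_AuNPs and 15 control barcodes had 3 or more markers but more than 1 of the 8 genes of other cells.

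Of the lineage genes that the rule did not use, Olig1 and Ptprz1 were detected in most barcodes of both gates. At least 1 of Olig1, Olig2 and Sox10 was detected in 11 of 13 EMF_AuNPs barcodes (84.6%, interval 54.6 to 98.1) and in 36 of 46 control barcodes (78.3%, interval 63.6 to 89.1). Olig1 was found in 11 and 35 barcodes, Olig2 in 6 and 22, and Sox10 in 4 and 21. In an endothelial gate, which should lack Olig1, 25.1% of EMF_AuNPs and 16.7% of control barcodes held an Olig1 UMI, at median depths of 2367 and 1945 UMIs, and this is the background against which its share in the precursor gate is read. Ptprz1, a receptor phosphatase that carries chondroitin sulfate, was detected in 9 of 13 EMF_AuNPs and 42 of 46 control barcodes, against 19.2% and 23.8% of the endothelial gate. Cspg5 (neuroglycan C), another proteoglycan of this kind, was detected in 6 and 32 barcodes.

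Part of the gate went against the label, by a check that did not use astrocyte markers. Such barcodes held none of Olig1, Olig2 and Sox10, or 4 or more marker genes of another cell class, astrocytes aside. They numbered 5 of 13 in the EMF_AuNPs gate and 18 of 46 in the control gate. With astrocyte markers counted the numbers would be higher. The control barcode of 2960 UMIs passed the check with 6 of 7 astrocyte markers (30 UMIs). The EMF_AuNPs barcode of 2399 UMIs passed it with 4 of 7 (10 UMIs). In the EMF_AuNPs gate 2 barcodes had none of the 3 factors, 1 of them under 1000 UMIs, and in the control gate 10 had none, 8 of them under 1000 UMIs. At least 4 of 7 myelinating markers were found in 2 and 6 barcodes, and 4 or more of 7 microglial markers in 2 and 3 barcodes. Fibroblast genes Dcn and Col1a1 and the pericyte gene Kcnj8 were at 0 UMIs in all 59 barcodes. Doublet calling marked 0 gate barcodes in either library. It did not mark the EMF_AuNPs barcodes of 19617 and 8184 UMIs, described below, which carried markers of several cell classes. The 0 calls therefore do not show that the gate lacks doublets.

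Transcripts typical of other cell types were detected throughout the gate, and not equally in the libraries. Ttr, the transthyretin of the choroid plexus, was detected in 13 of 13 and 46 of 46 barcodes. Haemoglobin Hbb-bs was detected in 13 of 13 EMF_AuNPs barcodes and in 24 of 46 control barcodes, and in 99.9% and 56.4% of the endothelial gates. The microglial gene C1qa was detected in 11 of 13 and 15 of 46 gate barcodes, and in 74.3% and 35.7% of the endothelial gates. For both genes the endothelial gates differed in the same direction as the precursor gates.

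The share of barcodes in the gate differed by less than its counting error. It was 0.186% in the EMF_AuNPs library (interval 0.0989 to 0.317) and 0.213% in the control library (interval 0.156 to 0.284), a difference of -0.0275 percentage points with an interval of -0.132 to 0.115. The gate asks for detected genes, so it depends on depth. Among barcodes under 1000 UMIs the share was 0.434% (6 of 1382) in the EMF_AuNPs library and 0.383% (14 of 3651) in the control library. Among those from 2000 to under 4000 UMIs it was 0.0724% (2 of 2764) and 0.255% (20 of 7839), and from 4000 UMIs on 0.239% (3 of 1254) and 0.0452% (1 of 2211). When every barcode was thinned to 1000 UMIs and shallower barcodes were left out (1382 and 3651), the shares were 0.142% and 0.123%. Of precursor plus mature oligodendrocyte gate barcodes, precursors were 1.13% (13 of 1150) in the EMF_AuNPs library and 0.756% (46 of 6083) in the control library, where the mature gate itself held 1137 and 6037 barcodes. In dissociated tissue, fewer cells of a type and less RNA per cell cannot be told apart in such shares.

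Relative to all other barcodes of their library, the precursor gate was high in a set of genes shared by both libraries and in others in 1 library alone. The comparison is a description, because the barcodes were chosen by genes that go with these. Levels were sums of UMIs scaled to 1000000 UMIs in all (CPM), with 10 CPM added before the log2 ratio. Of 2577 genes with 10 or more UMIs in the gate, 216 (8.38%) were at least 2-fold above the other barcodes in both libraries, 242 in the EMF_AuNPs library alone and 219 in the control library alone. Of 19 such members of a list of other precursor genes, 16 were above in both, as were 6 of 14 lineage transcription factors, 7 of 19 adhesion genes and 4 of 14 matrix genes.

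Matrix and surface genes above the other barcodes in both libraries included Tnr and Ptprz1. Tnr, which encodes tenascin-R of the perineuronal matrix (chromosome 1, 159523729 to 159931729), was detected in 5 of 13 EMF_AuNPs and 18 of 46 control gate barcodes, with 12 and 26 UMIs. Its pooled level was 247 CPM in the EMF_AuNPs gate against 1.23 CPM in that library's other barcodes, and 322 CPM in the control gate against 3.29 CPM. The log2 ratios were 4.51 and 4.64. Cntn1, the adhesion protein contactin-1 that binds tenascin-R and Ptprz1, was at 863 and 484 CPM in the EMF_AuNPs and control gates, with log2 ratios of 2.96 and 3.01. Ptprz1 (chromosome 6, 22875315 to 23052916) had log2 ratios of 2.46 and 3.08. Ptprz1 was also frequent in an astrocyte gate, in 52.4% and 65.6% of barcodes, and Cspg5 in 66.6% and 52.5%, while Tnr was detected in 0.352% and 0.687% of astrocyte barcodes.

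Further adhesion molecules formed a second group. Pcdh15, a protocadherin, had 9 UMIs in 7 EMF_AuNPs barcodes and 11 UMIs in 11 control barcodes, at 185 and 136 CPM against 3.08 and 3.29 CPM in the other barcodes. Dscam, a large immunoglobulin-type adhesion protein, had 5 and 21 UMIs, at 103 and 260 CPM against 1.49 and 2.61 CPM. Lrrtm3, a postsynaptic leucine-rich repeat protein, had 8 and 10 UMIs, at 164 and 124 CPM against 2.67 and 3.41 CPM. In the mature oligodendrocyte gate Pcdh15 was at 7.84 and 7.90 CPM and Dscam at 2.02 and 2.74 CPM, below the precursor gate in both libraries.

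Receptors and channels were detected by few UMIs. Of 18 growth and trophic receptor genes 5 reached 10 UMIs, and 3 of these were at least 2-fold above the other barcodes in both libraries. Ntrk3, the receptor of neurotrophin-3, was at 41.1 and 136 CPM in the gates against 7.18 and 6.08 CPM elsewhere, from 2 and 11 UMIs. Gria3, a subunit of AMPA receptors, was at 144 and 260 CPM against 9.18 and 11.4 CPM, from 7 and 21 UMIs. Sstr1, a somatostatin receptor, was at 103 and 86.8 CPM against 1.08 and 1.55 CPM, from 5 and 7 UMIs. The Notch list had 3 of 16 genes at 10 UMIs, the BMP and Id list 5 of 15 and the Wnt list 4 of 16, and 1, 1 and 0 of these were above the other barcodes in both libraries. The Notch ligands Dll1 and Dll3 had 0 UMIs in the EMF_AuNPs gate, where 0 allows up to 3 UMIs, against 6 and 7 UMIs in the control gate.

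Transcription factors of the lineage followed. Sox6, which with Sox5 holds precursors undifferentiated, was at 247 and 360 CPM in the EMF_AuNPs and control gates, with log2 ratios of 2.87 and 3.52. Olig2 (chromosome 16, 91225550 to 91228677) had log2 ratios of 2.51 and 2.66, Olig1 (chromosome 16, 91269769 to 91271939) 1.94 and 2.60, Sox4 1.68 and 2.40, and Sox10 (chromosome 15, 79154913 to 79164490) 1.41 and 1.56. Sox6 was at 9.87 and 10.3 CPM in the mature oligodendrocyte gate, whereas Olig1 was at 922 and 941 CPM there. Olig1 was therefore shared along the lineage, and Sox6 was lower in its mature part, in both libraries. Sox10 was at 267 and 368 CPM in the mature oligodendrocyte gate, against 226 and 471 CPM in the precursor gate. Sox4 was at 181 and 323 CPM in the microglia gate, against 267 and 533 CPM in the precursor gate. In the EMF_AuNPs gate 8 of the 13 Sox4 UMIs were in 1 barcode.

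**Figure D2:**
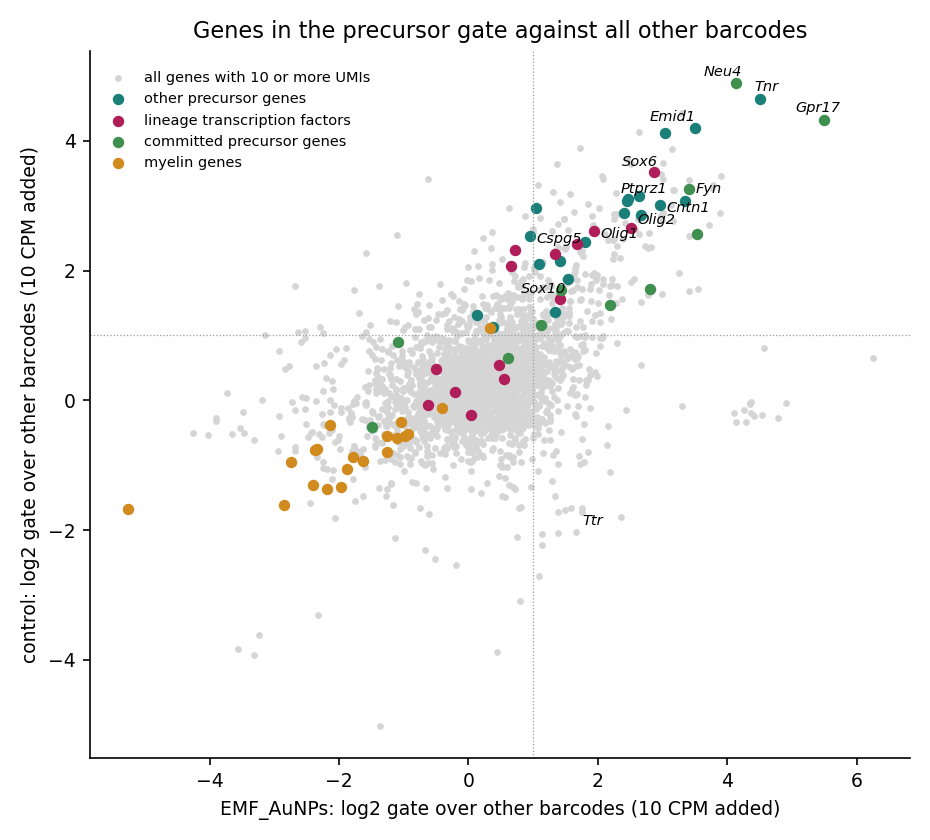
Each point is a gene with 10 or more UMIs in the gate (the 15 gate genes left out), with the log2 ratio of its level in gate barcodes over all other barcodes (10 CPM added) in the EMF_AuNPs library on the x axis and in the control library on the y axis. Tnr (4.51 and 4.64) and Gpr17 (5.50 and 4.32) lie at the upper right, Olig1 and Ptprz1 between 1.94 and 3.08, while Ttr is above 0 on the x axis and below 0 on the y axis.

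The gate was made up of different states, which single barcodes showed better than sums. The deepest EMF_AuNPs barcode, with 19617 UMIs and 4130 genes, did not look like a precursor beyond the gate. It held 6 UMIs of 3 markers (Pdgfra 1, Cspg4 2, Matn4 3), none of Olig1, Olig2, Sox10, Ptprz1 or Cspg5, and 6240 UMIs of Ttr. All 5 choroid plexus markers were detected in it, with 13 UMIs of the folate receptor Folr1, 10 of Kl (klotho) and 9 of the channel Clic6, and Ttr with the other 4 made 32.0% of its UMIs. It also held 18 UMIs of Vtn, 8 of Rgs5 and 6 of Pdgfrb, which pericytes carry. This barcode alone gave 40.3% of the EMF_AuNPs gate's UMIs.

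The second deepest EMF_AuNPs barcode carried precursor genes together with genes of cell division. It held 8911 UMIs, 6 of the 7 markers with 28 UMIs, and 12 UMIs of Pdgfra. It held 16 UMIs of Olig1, 7 of Sox10, 23 of Ptprz1 and 21 of Cspg5. Of 24 genes of the G2 and M phases it held 23, with 207 UMIs, among them 52 of the kinetochore gene Cenpf, 16 of cyclin Ccnb1, 14 of Mki67 and 5 of the topoisomerase Top2a. It held 0 UMIs of Gpr17. Its myelin list made 0.135% of its UMIs. The 46 control barcodes held 2 UMIs of the G2 and M list together, in 2 barcodes, so 0 of 46 met the threshold of 3 genes, which allows a share of up to 6.52%. In the EMF_AuNPs gate 1 of 13 met it, and the difference of 7.69 percentage points had an interval of -2.28 to 33.3. Among barcodes with 2 or more markers the counts were 2 of 30 and 0 of 95. That difference was 6.67 percentage points, with an interval of 0.476 to 21.3 that left out 0. The dividing EMF_AuNPs barcode added there had only 2 gate markers, and whether it was a precursor was not tested. The list summed to 212 and 6 UMIs in these barcodes, against 208 and 2 UMIs in the gate. After the gate barcodes were thinned to 1000 UMIs the counts were 1 of 7 and 0 of 32, a difference of 14.3 percentage points with an interval of -1.59 to 51.3.

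The third deepest EMF_AuNPs barcode, with 8184 UMIs, was rich in genes of the committed stage and of microglia. It held 12 UMIs of Gpr17, 12 of Enpp6, 16 of Bcas1, 8 of Bmp4 and 3 of Neu4, which are all 5 committed markers. It also held 28 UMIs of Fyn, the kinase that starts myelin formation, 6 of Nkx2-2, 35 of Cnp and 11 of Mbp. Of the 7 gate markers it held 3, with 5 UMIs, and Pdgfra was not among them. All 7 microglial markers were also present, with 67 UMIs, including 22 of C1qa and 11 of Csf1r. Its nearest control counterpart, the deepest of that gate with 4176 UMIs, held 3 UMIs of Gpr17, 6 of Enpp6, 9 of Bcas1, 6 of Bmp4 and 3 of Neu4, with 1 UMI of microglial markers.

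Other barcodes were in none of the committed, dividing and myelinating states. In the EMF_AuNPs gate 6 of 13, the choroid plexus barcode of 19617 UMIs among them, and in the control gate 32 of 46 barcodes were neither committed nor dividing and held fewer than 3 myelinating markers. Both sets included further barcodes that went against the label. One in the control gate, of 777 UMIs, held none of Olig1, Olig2 and Sox10 and 176 UMIs of Ttr. Control barcodes with 7 markers, 3 in number of which 2 were committed, with 2858, 2019 and 1987 UMIs, held 11, 5 and 8 UMIs of Olig1 and 7, 9 and 10 UMIs of the 24 myelin genes. The 6 control barcodes with 4 or more myelinating markers held between 2157 and 3855 UMIs, and myelin genes made 3.50% to 7.19% of these. Among them the one with 3855 UMIs had 5 gate markers and 17 UMIs of Olig1, the highest of the control gate. The EMF_AuNPs barcodes with 4 or more myelinating markers were the one of 8184 UMIs, at 1.75% of UMIs from myelin genes, and one of 684 UMIs, at 2.63%. Microglial markers were also high in 3 control barcodes, with 56, 38 and 26 UMIs.

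**Figure D3:**
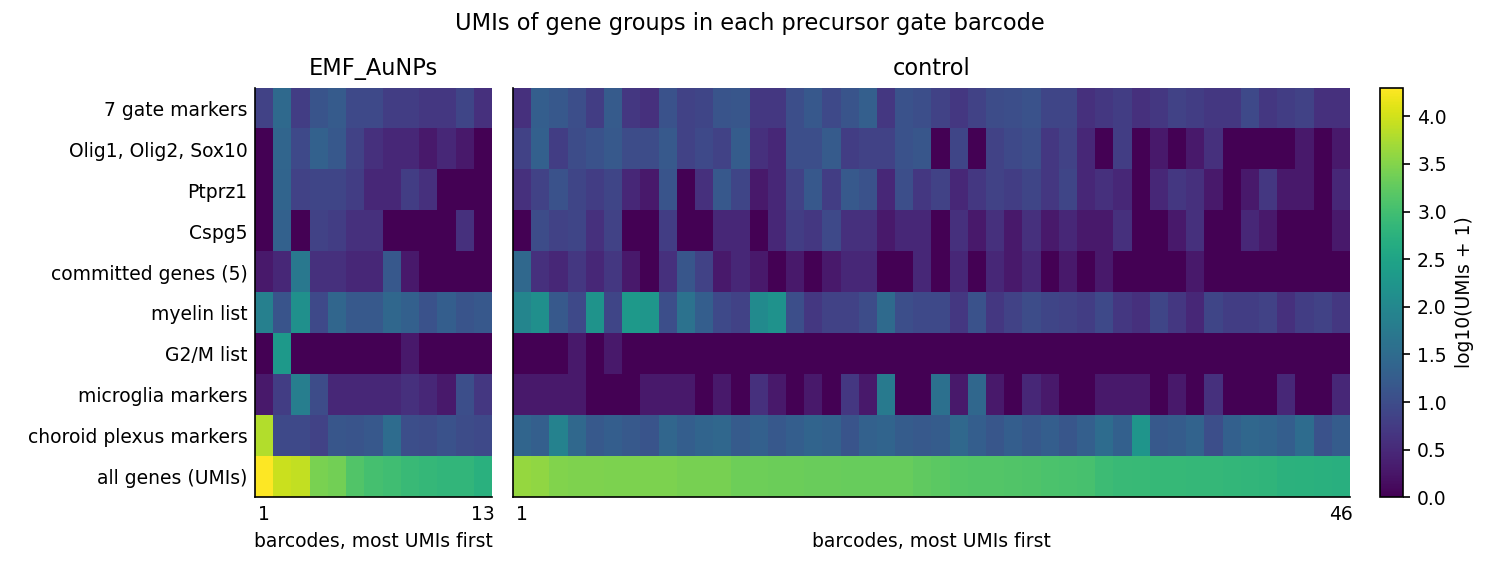
Each column is 1 gate barcode, EMF_AuNPs on the left and control on the right, ordered from the most to the fewest UMIs, and each row is a gene or gene group with its UMIs as log10(UMIs + 1). The first 3 EMF_AuNPs columns differ from each other, with 6287 UMIs of choroid plexus markers in the first, 207 UMIs of the G2 and M list in the second and 67 UMIs of microglial markers in the third, and 6 control columns carry over 100 UMIs of the myelin list.

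The share of barcodes in the committed stage differed by less than its counting error. At least 2 of Gpr17, Bmp4, Neu4, Enpp6 and Bcas1 were found in 5 of 13 EMF_AuNPs barcodes (38.5%) and 9 of 46 control barcodes (19.6%), a difference of 18.9 percentage points with an interval of -5.92 to 46.4. After thinning to 1000 UMIs the counts were 3 of 7 and 4 of 32, and among all barcodes with 2 or more gate markers 5 of 30 and 16 of 95, which are 16.7% and 16.8%. Gpr17 itself was found in 7 of 13 EMF_AuNPs barcodes (53.8%) and 11 of 46 control barcodes (23.9%). That difference was 29.9 percentage points with an interval of 1.53 to 55.0. Some barcodes with Gpr17 went against the label. In the EMF_AuNPs gate these were the ones of 8184 and 2758 UMIs, with 12 and 1 Gpr17 UMIs. In the control gate they were the ones of 2927 and 2810 UMIs, with 2 Gpr17 UMIs each. The Gpr17 difference was not computed without them or under other gates. Gpr17 was the one feature chosen here whose interval left out 0, among 6 features of the gate barcodes compared in this way, and the intervals were not adjusted for their number. Gpr17 was detected in 0.528% of EMF_AuNPs and 0.729% of control mature oligodendrocyte barcodes and in 0.611% and 0.435% of endothelial barcodes, both far below the shares in the precursor gates.

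The Gpr17 UMIs in the 7 EMF_AuNPs barcodes were 12, 8, 3, 1, 1, 1 and 1, and in the 11 control barcodes 1 to 3 each. The 2 highest EMF_AuNPs barcodes lie above all control barcodes, and the others overlap with them. The pooled level was 555 CPM in the EMF_AuNPs gate (27 UMIs) and 248 CPM in the control gate (20 UMIs), a log2 ratio of 1.16 with an interval of 0.27 to 2.07, and 2.33 without the 3 deepest barcodes. Outside the gate the ratio was -0.16. Bmp4, a secreted signalling protein, had 11 UMIs in 3 EMF_AuNPs and 9 UMIs in 4 control barcodes. Enpp6, a choline phosphodiesterase, had 14 UMIs in 2 and 11 UMIs in 2. Neu4, a sialidase, had 9 UMIs in 5 and 25 UMIs in 17 barcodes, at 185 and 310 CPM against 1.08 and 0.784 CPM outside the gates. Of the 17 genes of the committed list 1, Fyn, had enough UMIs for the gene comparison below, and its log2 ratio was 0.09, from 28 of 34 UMIs in 1 barcode, and -1.39 without the 3 deepest barcodes. The whole list summed to 140 and 222 UMIs, or 2876 and 2753 CPM, with 93 of the 140 in 1 barcode. The log2 ratio of the sum was 0.063, but 1.14 without the deepest barcode of each gate and -0.70 with the barcodes that went against the label left out.

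Gene levels were then compared between the libraries in pooled gate barcodes. A gene was compared when it had at least 50 UMIs over both gates, which left 335 genes after the 15 gate genes were put aside, and 1 CPM was added before the log2 ratio of EMF_AuNPs over control. At least 1.5-fold higher were 51 genes (15.2%) and at least 1.5-fold lower were 74 genes (22.1%), with a median log2 ratio of 0.01. In 26 of the 51 higher genes over 50% of the EMF_AuNPs UMIs came from 1 barcode, as they did in 105 of all 335 genes. Without the 3 deepest barcodes, 240 genes had 50 UMIs, and 34 (14.2%) were higher and 74 (30.8%) lower. Of the 51 higher genes 19 and of the 74 lower genes 33 kept their 1.5-fold difference without the 3 barcodes, whatever their UMIs. No p-value goes with these counts, and the share of the 335 genes past 1.5-fold is the level against which each list is read. With 1 library per group, the treatment, the animals and the preparation cannot be told apart.

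**Figure D4:**
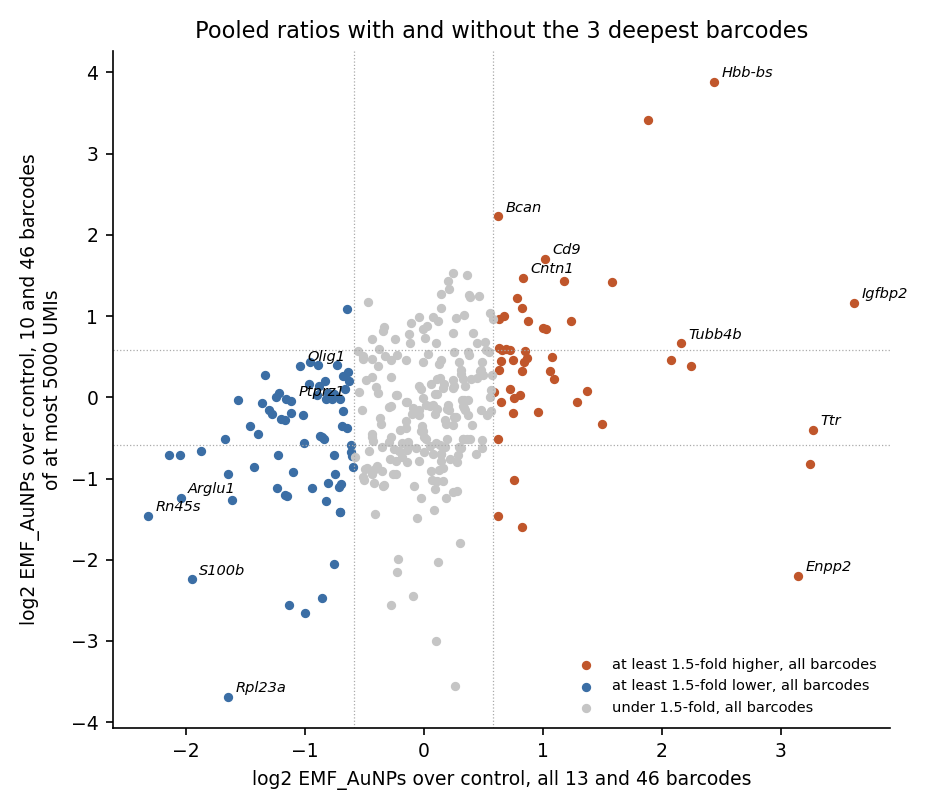
Each point is 1 of the 331 compared genes with UMIs in both gates after the deepest barcodes were left out (4 of the 335 had none in 1 gate), with its log2 ratio of EMF_AuNPs over control in all 13 and 46 barcodes on the x axis and in the 10 and 46 barcodes of at most 5000 UMIs on the y axis. Dotted lines mark 1.5-fold, and Ttr (3.27 and -0.40) and Enpp2 (3.15 and -2.19) move across 0 while S100b (-1.95 and -2.24) and Cd9 (1.02 and 1.70) do not.

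The next genes had a mean CPM over both libraries at least as high in the gate as in mature oligodendrocyte, astrocyte, microglia and endothelial gates. A gene can pass this filter through the EMF_AuNPs gate alone. In the control gate Ttr was at 13567 CPM, against 40866 CPM in control astrocytes. Enpp2 was at 769 CPM there, against 1823 CPM in control mature oligodendrocytes. Control gate levels of 1500015O10Rik, Atp5g1, Arl6ip1 and Tubb4b were also below those of control astrocytes. The highest ratios belonged to single barcodes. Ttr had 6379 UMIs in the EMF_AuNPs gate, 6240 of them in 1 barcode, and 1094 in the control gate, and its log2 ratio of 3.27 was -0.40 without the 3 deepest barcodes. The secretory choroid plexus genes 1500015O10Rik (3.24) and Enpp2, which encodes autotaxin (3.15), had 68 of 69 and 318 of 332 UMIs in that same barcode, and their ratios without the 3 barcodes were -0.82 and -2.19. Atp5g1 (2.25), a subunit of ATP synthase, had 78 of 89 UMIs in it. Arl6ip1 (2.07), of the endoplasmic reticulum, and Tubb4b (2.16), a tubulin, had 71 of 112 and 31 of 46 UMIs in 1 barcode. Their ratios without the 3 barcodes were 0.46 and 0.66.

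Some genes were higher with and without those barcodes. Cd9, a tetraspanin of oligodendrocyte precursors and young oligodendrocytes (chromosome 6, 125460266 to 125494760), had 76 UMIs in 11 of 13 EMF_AuNPs barcodes and 62 UMIs in 20 of 46 control barcodes. Its log2 ratio was 1.02 (interval 0.52 to 1.53), 1.87 without the deepest barcode of each gate and 1.70 without the 3, and it was 0.77 outside the gate. Cntn1 had 42 UMIs in 10 and 39 UMIs in 23 barcodes, with a ratio of 0.83, of 1.47 without the 3, and of 0.98 outside the gate. Bcan, which encodes the proteoglycan brevican, had 55 UMIs in 10 and 59 UMIs in 33 barcodes, with a ratio of 0.63, of 2.23 without the 3 and of 0.81 outside the gate. Cntn1 and Bcan were named after their values were seen, as the only higher members of their lists. All 3 genes were thus higher in the other barcodes of the EMF_AuNPs library as well, and whether their gate values differ from those was not tested. The glycolytic enzyme Pkm (1.03, and 0.84 without the 3) and the interferon-related Ifi27 (0.87, and 0.94) were also higher, from 37 and 31 UMIs in the EMF_AuNPs gate, although Ifi27 was at -0.42 with the barcodes that went against the label left out. The RNA-binding protein Hnrnpk had a ratio of 0.96, and of -0.18 without the 3.

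Several genes had low ratios with and without the 3 deepest barcodes. S100b, a calcium-binding protein of astrocytes and of maturing oligodendrocyte lineage cells, had 15 UMIs in 3 EMF_AuNPs barcodes and 96 UMIs in 29 control barcodes, with a log2 ratio of -1.95 (interval -2.84 to -1.16) and of -2.24 without the 3 deepest barcodes. In the EMF_AuNPs gate 12 of its 15 UMIs were in 1 barcode, and without the deepest barcode of each gate its ratio was -0.92. Outside the gate it was -0.20. S100a16 had 30 UMIs in 6 and 117 UMIs in 29 barcodes, with a ratio of -1.23, of -0.59 without the deepest barcode of each gate, of -1.12 without the 3 and of -0.03 outside the gate. Arglu1 (-2.04), a splicing regulator, Ankrd11 (-1.61), a chromatin regulator, Eif2s2 (-1.42), a subunit of the initiation factor eIF2, and Tcf25 (-1.13) had ratios of -1.24, -1.26, -0.86 and -2.55 without the 3. Ankrd11 and Tcf25 were also lower outside the gate, at -0.76 and -0.72.

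Other low ratios shrank when the deep barcodes were left out. The endocytic adaptor Epn2 (-1.20), the calcium sensor Ncald (-1.17) and the growth factor Ptn (-1.16), which is a ligand of Ptprz1, had ratios of -0.27, -0.28 and -0.02 without the 3. Ptprz1 itself had 60 UMIs in 9 and 215 UMIs in 42 barcodes, with a ratio of -1.11, and of -0.04 without the 3. The deepest EMF_AuNPs barcode, which gave 40.3% of that gate's UMIs, held 0 UMIs of Ptprz1.

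The lists of precursor, matrix and adhesion genes had low medians that turned positive without the 3 deepest barcodes. Over all 335 genes the median without the 3 was -0.14, with 53 higher and 104 lower. Of 27 other precursor genes 8 were compared, of which 1 was higher (Cntn1) and 3 lower (Ptprz1, Epn2, Ncald), with a median log2 ratio of -0.51, against 0.01 over all 335 genes, and of 0.49 without the 3 deepest barcodes. The sum of the list was 343 and 814 UMIs, a log2 ratio of -0.52 (interval -0.70 to -0.33), and 0.44 (interval 0.19 to 0.69) without the 3. Of 21 matrix genes 5 were compared, 1 higher (Bcan) and 2 lower (Ptprz1, and Sparcl1 at -1.33, which was 0.28 without the 3), with a median of -0.51, and of 0.47 without the 3. Of 18 growth receptors 3 were compared and 2 were lower, Ptprz1 and the lipoprotein receptor Lrp1 at -1.01, which was -0.57 without the 3. Of 25 adhesion genes 4 were compared, 1 higher (Cntn1) and 2 lower, among them the neurexin Nrxn2 at -0.89, which was 0.40 without the 3, and the list's median was -0.71, and 0.23 without the 3. The AMPA receptor subunit Gria2 was the one channel compared, at -0.67, and at 0.26 without the 3.

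Lineage transcription factors gave no stable direction. Of 20 factors all were detected in both gates, and 3 had 50 UMIs, which were Olig1, Sox4 and Tcf4. Olig1 had 59 UMIs in 11 EMF_AuNPs barcodes and 201 UMIs in 35 control barcodes, a ratio of -1.04 that was 0.39 without the 3. Sox4, of immature cells, had 13 UMIs in 3 and 43 UMIs in 21 barcodes, with ratios of -0.99 and -2.66. Tcf4 had 36 and 54 UMIs with ratios of 0.14 and 0.46. Of the others, with under 50 UMIs, Olig2 had 14 and 34 UMIs (-0.55), Sox10 11 and 38 (-1.06), Sox8 6 and 25 (-1.32) and Sox6 12 and 29 (-0.54). Without the 3, Olig2 was at 1.12, Sox10 at -1.49 and Sox6 at -1.10, from 11, 2 and 2 EMF_AuNPs UMIs. Sox5 had 2 and 11 UMIs, Sox2 7 and 20, and Zeb2 9 and 23. Nfia had 16 and 18 UMIs, Nfib 8 and 15, Etv1 5 and 15, Etv5 3 and 12, Sox3 2 and 5, Sox9 3 and 5, Myt1 3 and 4, and Zfp488 1 and 1. Nkx2-2, which drives differentiation, had 7 UMIs of which 6 were in the committed barcode of 8184 UMIs, against 1 UMI in the control gate.

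Most compared myelin genes were lower in the EMF_AuNPs gate, but not under every choice of barcodes. Of 24 listed 10 were compared, 0 higher and 9 lower, with a median log2 ratio of -1.11. The lipocalin Apod had 9 and 66 UMIs (-2.14), and the pteridine reductase Qdpr 8 and 55 (-2.05). Without the 3 deepest barcodes 104 of all 335 genes were lower, with a median of -0.14. Of the 10 myelin genes 4 were then lower, with a median of -0.31. With 5 EMF_AuNPs and 18 control barcodes that went against the label left out, it was 0.73, and Apod and Qdpr were then at 0.92 and 0.40. That choice leaves out every barcode with 4 or more myelinating markers, so these values are not independent of myelin genes. Barcodes with 4 or more myelinating markers held 161 of the 394 myelin UMIs of the EMF_AuNPs gate (40.9%) and 945 of the 1360 of the control gate (69.5%), and their part in the difference was not tested.

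Of the lists of stress, immune and translation genes with 10 or more UMIs in each gate, the interferon list was the one whose sum was past 1.5-fold both with and without the 3 deepest barcodes. It summed to 53 and 45 UMIs, a log2 ratio of 0.96 (interval 0.36 to 1.57), and 1.26 (interval 0.34 to 2.11) without the 3, and Ifi27 gave 31 and 28 of these UMIs. With the barcodes that went against the label left out it was 8 and 31 UMIs, at -0.38, and after thinning to 1000 UMIs 4 and 18 UMIs, at 0.023. Outside the gate the ratio of the sum was 0.36. Immediate early genes summed to 105 and 186 UMIs, at -0.10 and at 0.71 without the 3, with Jun at -0.37 and Jund at 0.27. Neither of these 2 compared genes was past 1.5-fold, but without the 3 both were, at 0.59 and 0.97. Of 19 heat shock genes 8 were compared, 1 higher and 2 lower. The higher one, Hsp90aa1, was at 0.76 and at -0.01 without the 3, and the lowest, the mitochondrial chaperonin Hspe1, had 13 UMIs against 42, at -0.96. Metallothioneins Mt1 (-1.27) and Mt3 (-0.77) were the 2 lower members of 5 compared in an iron and redox list, and were at -0.20 and -0.03 without the 3. Of 84 ribosomal protein genes 72 were compared, 6 higher and 7 lower, with a median of 0.00. Without the 3 deepest barcodes 0 of the 72 were higher and 35 lower, with a median of -0.56. Of all 335 genes 53 were then higher and 104 lower, with a median of -0.14. Rpl23a had 17 UMIs against 88 (-1.64) and Rpl38 25 against 75 (-0.86), and such genes have many near-identical copies, so their counts are uncertain.

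Genes followed whatever their values were at the edge of detection. Kat2a, a histone acetyltransferase, had 2 UMIs in 2 EMF_AuNPs barcodes and 0 in the control gate, so no fold is given, and the acetyltransferase list of 12 genes summed to 25 and 50 UMIs. The class I histocompatibility genes H2-D1 and H2-K1 had 2 and 4 UMIs in the EMF_AuNPs gate and 10 and 10 in the control gate. Mki67 had 15 UMIs, 14 of them in the dividing barcode, and 0 in the control gate.

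Of the 51 higher genes 12 and of the 74 lower genes 13 were past 1.5-fold in the same direction in all other barcodes, where 28 (8.36%) of the 335 genes were higher and 22 (6.57%) lower. The median difference between a gene's log2 ratio in the gate and its ratio outside it was 0.07 over the 335 genes.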

How the data were processed

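The deposited matrices held whole-number UMI counts per gene and barcode, which the authors made against the mm10 genome with Cell Ranger 3.0.2, which runs STAR, per the submitters' processing notes. The annotation is not stated. Library preparation followed the 10x protocol after papain dissociation, per the labels' protocols. All deposited barcodes were used. The gate, its members and the gene lists were chosen with earlier results of these data known. Counts were summed per gate and library and scaled to CPM, and ratios had 1 CPM added, with exact conditional binomial intervals. Shares had exact Clopper-Pearson intervals and their differences Newcombe intervals. A fold of 1.5 was called, with no p-value, as each group was 1 library. Scrublet (scanpy 1.11.5) set an automatic threshold that marked 0 and 3227 barcodes, so the top 0.8% per 1000 barcodes by score, 392 and 3727 barcodes, was called instead. Named genes were the 10 highest and 10 lowest ratios among genes with 50 UMIs, 10 barcodes and a mean CPM no lower than in 4 other cell gates, 2 per list, and a fixed set, and some genes that this rule named are not reported here. Python 3.11.15, numpy 2.4.6, pandas 2.3.3 and scipy 1.17.1 were used.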

Additional observations from a re-analysis of the deposited data

How the results depend on the processing

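No paired analysis was possible because each group was 1 library with no replicate. The precursor share difference kept an interval that held 0 under every alternative run, and was 0.374 percentage points as a share of precursor plus mature oligodendrocyte barcodes. The dividing and committed differences moved by less than their counting intervals. With 2 or more markers, however, the dividing interval, 0.476 to 21.3 percentage points, left out 0. Whether the dividing EMF_AuNPs barcode added by that setting was a precursor was not tested. Doublet calls left out 0 gate barcodes, and 10 CPM added or centring on the median left 51 higher and 74 lower genes. The higher and lower genes numbered 153 and 198 of 1015 with 2 or more markers, 28 and 44 of 166 with 4 or more, 15 and 36 of 120 with 0 excluded genes, 6 and 8 of 49 after thinning, 185 and 340 at 20 UMIs, 21 and 33 at 100 UMIs, and 22 and 34 at 2-fold. With barcodes against the label left out they numbered 28 and 37 of 155, and without committed or myelinating barcodes 44 and 43 of 174. These sets change the barcodes or the genes compared.

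Single ratios changed sign with the barcodes. With 4 or more markers Ttr was at -1.37, Enpp2 -2.75, Atp5g1 -0.49, Ifi27 -0.055, Gria2 0.45 and Nrxn2 0.045. With 0 excluded genes Ttr was at -0.999, 1500015O10Rik -1.14, Enpp2 -0.93, Atp5g1 -1.86, Ifi27 -0.15, Apod 1.39, Qdpr 0.91 and the myelin median 0.70. After thinning Ifi27 was at -1.50, Olig1 0.28, Gria2 0.023, Nrxn2 0.25, the lineage factor median 0.28 and the adhesion median 0.14. With each barcode weighted alike Hnrnpk was at -0.34 and the myelin median 0.21. Without the deepest barcode of each gate Ttr was at -1.55, 1500015O10Rik -2.03, Enpp2 -0.73, Atp5g1 -0.051, Gria2 0.091 and the adhesion median 0.032.

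Alternatives added after seeing the data gave further changes of sign. With barcodes against the label left out, Ttr was at -0.91, 1500015O10Rik -1.41, Enpp2 -1.33, Atp5g1 -0.68, Ifi27 -0.42, Apod 0.92, Qdpr 0.40 and the myelin median 0.73. Without the 3 barcodes over 5000 UMIs, Ttr was at -0.40, 1500015O10Rik -0.82, Enpp2 -2.19, Hnrnpk -0.18, Olig1 0.39, Sparcl1 0.28, Gria2 0.26, Nrxn2 0.40, Hsp90aa1 -0.0094, the lineage factor median 0.39 and the adhesion median 0.23. The cause of these changes was not tested. A gene with 0 UMIs in a gate got no ratio under that alternative.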

Other observations

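Genes outside the lists were also above the other barcodes in the gate of both libraries, and the following were chosen after their values were seen. Cyclin Ccnd1, which drives entry into the cell cycle, was at 329 CPM in the EMF_AuNPs gate and 422 CPM in the control gate, against 33.1 and 50.5 CPM outside it, from 16 UMIs in 2 barcodes and 34 UMIs in 20 barcodes. Sulf2, an extracellular sulfatase of heparan sulfate, was at 288 and 322 CPM against 27.6 and 38.2 CPM. Rtn1, a reticulon of the endoplasmic reticulum, was detected in 9 of 13 and 36 of 46 barcodes, at 883 and 1153 CPM against 133 and 186 CPM. Fabp7, the fatty acid-binding protein of neural progenitors and astrocytes, was at 699 and 496 CPM against 139 and 62.7 CPM. Its level in the astrocyte gate was 273 and 159 CPM, and 22 of its 34 UMIs in the EMF_AuNPs precursor gate were in 1 barcode. Marcks, a membrane-bound regulator of actin, was at 1253 and 1451 CPM against 353 and 370 CPM. It was about as high in the microglia gate, at 1109 and 1453 CPM. In the EMF_AuNPs precursor gate 32 of its 61 UMIs were in 1 barcode. G0s2, an inhibitor of triglyceride lipase, was at 205 and 347 CPM against 34.4 and 28.9 CPM.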
